A study of Mus musculus with 17 samples.

Results

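Blastocysts were compared with 2-cell embryos in a microarray series of mouse preimplantation development. The comparison took the 3 arrays titled Blastocyst and the 3 titled 2-Cell out of 17 arrays in all, the others being 4 of oocytes, 3 of 1-cell embryos and 4 of 8-cell embryos. Each array was an Affymetrix MG-U74Av2 chip hybridised with RNA from 1 sample, which per the labels was total RNA amplified by in vitro transcription in 2 rounds. The groups differ by stage alone as far as the labels say: mouse strain, age, hours after fertilisation, the number of embryos per sample and the way they were collected are not stated in those labels. Whether the 3 samples of a stage came from separate pools of embryos is not stated in the labels, and a p-value therefore reflects only how far these particular samples differ, part of which may be technical.

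The 2 stages stand at either end of cleavage. The 2-cell embryo still carries much of the RNA stored by the oocyte, and it is the stage at which the mouse embryo's own genome is first transcribed on a large scale. By the blastocyst stage the outer cells have formed the trophectoderm, a polarised epithelium sealed by tight junctions that pumps fluid into the cavity and later forms placenta, while the inner cell mass holds the pluripotent cells of the future embryo and the first cells of the primitive endoderm. Mitochondria mature and glucose use increases over the same period.

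A value is a signal intensity of a probe set, a set of short probes for 1 transcript. Differences are given as blastocyst minus 2-cell on the scale of log2(signal + 11), with the standard error of the fit, so that a difference of 1 is about a doubling of a bright signal and a larger ratio of a dim one. A gene is called higher or lower where its Benjamini-Hochberg adjusted p from limma, a linear model fitted over all 17 arrays, is below 0.05. Signals below 41.1, the median of all values, are called dim. Because these are bulk samples, fewer cells of a type and less RNA per cell cannot be told apart.

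Of 8067 probe sets tested, 2233 were higher in blastocysts (27.7%) and 2586 were lower (32.1%). With 1 probe set per gene, 1695 of 6044 genes were higher (28.0%), 1976 were lower (32.7%) and 2373 were not called. The 3 blastocyst arrays and the 3 2-cell arrays did not overlap for 65.4% of the genes tested. The change was at least 2-fold for 1261 higher and 1333 lower genes, and at least 16-fold for 61 higher and 91 lower genes. Correlations between arrays over all probe sets tested were 0.935 to 0.959 among 2-cell samples, 0.96 to 0.973 among blastocysts and 0.569 to 0.639 between the stages.

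**Figure D1:**
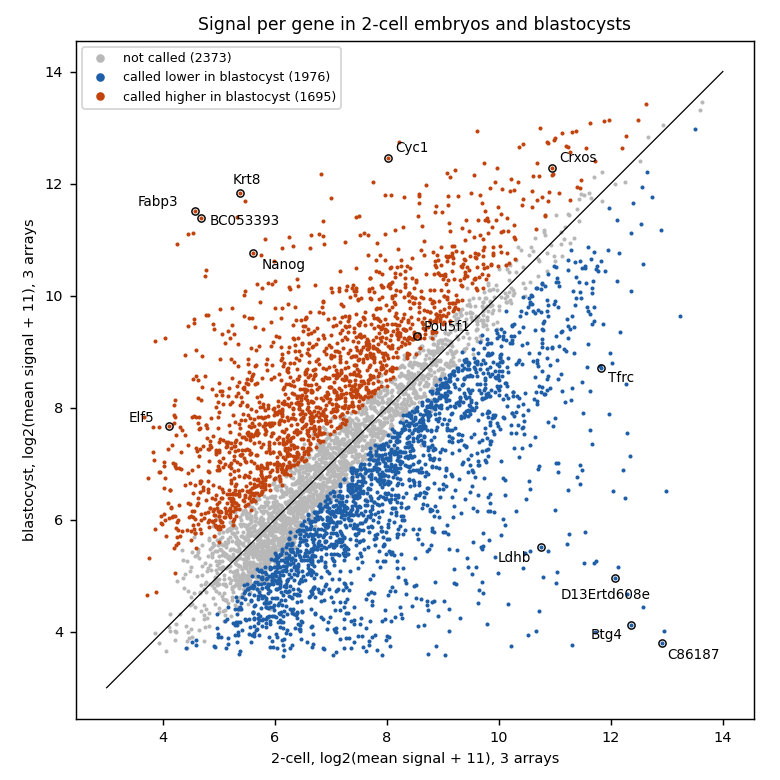
Mean signal of each of 6044 genes in 3 2-cell arrays (horizontal axis) and 3 blastocyst arrays (vertical axis), both as log2(mean signal + 11); each point is 1 gene, coloured by its call, and the line marks equal levels. The 1695 genes called higher lie above the line and the 1976 called lower below it, with C86187 and Btg4 bright in 2-cell embryos and near 0 signal in blastocysts.

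The balance between higher and lower calls depended on how the arrays were brought to a common scale. As deposited, 46.3% of the called probe sets were higher and the median difference over all probe sets was -0.17. Centring each array on its median gave 54.8% higher. Scaling on 9 probe sets for the hybridisation spikes BioB, BioC, BioDn and CreX gave 67.6% higher, with 2726 higher and 1305 lower. These spikes are control transcripts added before hybridisation, and several probe sets read the same spike. Spike scaling moved the median difference by 0.47 and median centring by 0.19. Falls larger than these shifts could also lose their call, as that of Dppa4 did under spike scaling at -0.81, and lists whose median changed sign are named below.

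The stage labels fitted most of their defining genes. The 2-cell arrays were the higher group for Tcstv1, Tcstv3 and Usp17la, genes transcribed in a burst at that stage. The blastocyst arrays were the higher group for the trophectoderm genes Krt8, Krt18, Krt7, Eomes, Gata3 and Tfap2c and for the inner cell mass genes Nanog, Sox2, Gdf3 and Pou5f1. Eif1a, also switched on at 2 cells, was higher in blastocysts. Fgf4 of the inner cell mass and the primitive endoderm factors Gata4 and Sox17 were not called. Cdx2, the homeobox factor that defines trophectoderm, gave dim signals on every array, between 2.2 and 4.5 in 2-cell embryos and between 3.8 and 15.4 in blastocysts, and was not tested.

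The keratins of the new epithelium were among the largest rises. Krt8, the type II keratin of simple epithelia, had signals of 29.8, 38.0 and 24.6 in the 3 2-cell samples and 3231, 3404 and 4331 in the 3 blastocyst samples. The difference was 6.46 ± 0.43 (limma adjusted p = 3.59e-11). Krt18, the type I keratin that pairs with Krt8 in the same filament, had 27.7, 39.9 and 32.7 in 2-cell embryos and 2788, 3940 and 3108 in blastocysts, a difference of 6.20 ± 0.24 (limma adjusted p = 1.21e-14). All 2-cell arrays were dim for both genes and the blastocyst arrays of both lay far above them. At the 8-cell stage the means were 296 for Krt8 and 172 for Krt18.

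Krt8 and Krt18 are neighbours on chromosome 15 and are transcribed from opposite strands, so their start regions are printed to show what lies before each gene. Each window runs from 250 bases before to 50 bases after the gene's start, from RefSeq, build GRCm38.p6, 5′ to 3′ on the gene's own strand, with Krt8 at chr15:102004293-102004592 on the minus strand and Krt18 at chr15:102027966-102028265 on the plus strand. Capitals mark matches on either strand to 5 motifs: the GC box GGGCGG, the TATA box TATAAA, the CCAAT box, the AP-2 motif GCCNNNGGC and the TEAD core GGAATG.
Krt8 promoter: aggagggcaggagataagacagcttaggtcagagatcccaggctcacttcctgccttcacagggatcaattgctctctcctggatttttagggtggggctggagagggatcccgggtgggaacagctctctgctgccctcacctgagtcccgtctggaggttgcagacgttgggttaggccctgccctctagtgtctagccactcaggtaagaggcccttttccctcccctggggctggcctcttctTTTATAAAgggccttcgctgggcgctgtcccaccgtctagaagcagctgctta
Krt18 promoter: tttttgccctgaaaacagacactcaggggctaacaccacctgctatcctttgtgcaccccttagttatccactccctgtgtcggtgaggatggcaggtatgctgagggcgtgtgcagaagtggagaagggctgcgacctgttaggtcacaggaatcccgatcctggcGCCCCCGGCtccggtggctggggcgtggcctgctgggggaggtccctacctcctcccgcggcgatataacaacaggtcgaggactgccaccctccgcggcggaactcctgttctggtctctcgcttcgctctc
The Krt8 window holds a TATA box that also reads as one on the other strand, so its 2 matches overlap. The Krt18 window holds 1 AP-2 match. A TATA box is in 13.6% of all 32851 promoter windows of the table and in 8.16% of the 6261 windows of tested genes, and an AP-2 match in 16.6% and 24.5%. In the 67 windows of genes called at least 16-fold higher these shares were 13.4% for TATA and 22.4% for AP-2. TEAD cores were in 10.4% of those 67 windows and in 12.1% of the windows of tested genes. A match to these letters is a description of the sequence and not a measured binding site.

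The trophectoderm list had 20 of 25 tested members higher and 1 lower, with a median difference of 2.04 against -0.16 over all genes. Eomes, the T-box factor of trophectoderm and trophoblast stem cells, had signals of 7.5, 10.9 and 11.5 in 2-cell embryos and 361, 458 and 627 in blastocysts, a difference of 4.53 ± 0.28 (limma adjusted p = 1.27e-11). A further probe set for Eomes gave 4.67. Id2, a helix-loop-helix protein without a DNA-binding domain that is enriched in outer cells, had 238, 210.3 and 165 in 2-cell embryos and 3943, 5344 and 3262 in blastocysts, a difference of 4.27 ± 0.44. Neither gene's arrays overlapped between the stages.

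Further transcription factors of the trophectoderm rose by smaller amounts. Gata3 rose from 121, 75.5 and 53.8 to 681, 928 and 723, a difference of 3.11 ± 0.24 (limma adjusted p = 3.44e-10). The ETS factor Elf5, which maintains trophoblast stem cells, had 8.8, 4.1 and 5.8 in 2-cell embryos and 112, 284 and 187 in blastocysts, and the blastocyst values varied among themselves more than 2-fold. The other differences were 2.70 ± 0.31 for Elf3, 2.15 ± 0.35 for Tfap2a, 1.52 ± 0.18 for Tfap2c, 1.42 ± 0.23 for Gata2 and 2.62 ± 0.34 for Klf5. Tfap2c and Klf5 already gave clear 2-cell signals, with means of 448 and 198, while those of Elf5 were dim. Among other members of the list, the tetraspanin Tspan8 rose by 3.52 ± 0.38, the keratin Krt7 by 3.15 ± 0.34, the placental gene Plac1 by 1.89 ± 0.29 and the surface protein Plet1 by 2.04 ± 0.36.

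The Hippo pathway, which sets trophectoderm identity through the TEAD4 factor and its YAP1 and WWTR1 coactivators, did not move as a block. Yap1 was the only tested member of the trophectoderm list called lower. Its signals were 3176, 3107 and 3442 in 2-cell embryos and 618, 814 and 695 in blastocysts, a difference of -2.18 ± 0.14 (limma adjusted p = 3.59e-11), and a further probe set gave -1.53. Tead4 was not called at 0.10 ± 0.16, and none of its 3 further probe sets was called either. Wwtr1 was not called at 0.51 ± 0.24 (limma adjusted p = 0.0674), although a second probe set for it was higher at 2.21 and leaving out 2-cell replicate 3 or blastocyst replicate 3 gave a call at 0.65 and 0.70. Amot, the angiomotin that holds YAP1 at junctions, rose from 93.2, 70.5 and 77.5 to 632, 711 and 719.9.

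Genes of junctions, polarity and desmosomes, the structures that seal the outer layer, had 26 of 38 tested members higher and 3 lower, with a median of 1.57. All 4 tested claudins, the membrane proteins that form the tight junction seal, were higher, by 0.96 to 5.32. Cldn7 had signals of 2.5, 4.2 and 3.7 in 2-cell embryos and 556, 478 and 677 in blastocysts, a difference of 5.32 ± 0.21 (limma adjusted p = 1.57e-14). Cldn4 had 6.0, 33.5 and 16.9 in 2-cell embryos and 704, 799 and 631 in blastocysts. Cldn7 and Cldn4 were thus dim on all 2-cell arrays and bright on all blastocyst arrays, while Cldn6, the smallest rise, was present at both stages with means of 93.2 and 181 and lost its call without 2-cell replicate 3, at 0.65.

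Desmosomes, which anchor keratin filaments at the cell surface, gained several members. Desmoplakin, encoded by Dsp, had 33.5, 32.7 and 31.9 in 2-cell embryos and 889, 462 and 1017 in blastocysts, a difference of 4.12 ± 0.48. The desmosomal cadherin Dsc2 rose by 3.27 ± 0.26 and the plakophilin Pkp2 by 2.46 ± 0.26, while Pkp4, a plakophilin relative of adherens junctions, was lower at -1.21 ± 0.21. Of the gap junction genes, Gjb5 rose by 2.43 ± 0.22 and Gja1 by 3.17 ± 0.38. The adhesion protein Epcam rose from 28.3, 25.5 and 10.7 to 869, 886 and 829.5, a difference of 4.79 ± 0.33 (limma adjusted p = 6.14e-11). The partners S100a10 and Anxa2, which form a complex under the plasma membrane, rose by 4.56 ± 0.27 and 4.74 ± 0.35, although a second S100a10 probe set was not called at 0.21. Tight junction adhesion molecule F11r rose by 1.56 ± 0.23 and the actin linkers Vcl and Ezr by 2.29 ± 0.24 and 1.99 ± 0.25.

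The core of the adherens junction changed little by comparison. E-cadherin, encoded by Cdh1, had 222, 229.5 and 182 in 2-cell embryos and 166, 179 and 101 in blastocysts and was not called at -0.51 ± 0.22 (limma adjusted p = 0.0543). Its catenin partners Ctnnb1 and Ctnna1 were higher by 0.71 ± 0.16 and 1.24 ± 0.20, and Ctnnd1 was not called at 0.22 ± 0.19. The tight junction scaffold Tjp1 was present at both stages, with means of 591 and 759, and was not called at 0.36 ± 0.19. The call on Cdh1 was close to the threshold, since 8 of the alternative settings, among them quantile normalization at -0.52, called it lower. Without 2-cell replicate 3 it was lower at -0.61, without blastocyst replicate 1 at -0.60 and without blastocyst replicate 2 at -0.65.

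Ion and water transport genes, which drive fluid into the cavity, divided evenly, with 5 of 10 tested members higher and 5 lower and a median of -0.02, which was 0.50 under spike scaling. The sodium pump subunit Atp1b1 had signals of 55.1, 52.8 and 23.7 in 2-cell embryos and 96.5, 71.2 and 70.9 in blastocysts, a difference of 0.77 ± 0.27 (limma adjusted p = 0.0164). That call was lost without 2-cell replicate 3 at 0.47 and without blastocyst replicate 1 at 0.64. The water channel Aqp8 rose by 1.41 ± 0.32 and the scaffold Slc9a3r1 by 1.44 ± 0.24. The chloride cotransporter Slc12a2 fell from 542, 877 and 1657 to 399, 282 and 293, a difference of -1.49 ± 0.29, and the water channel Aqp1 was lower at -1.81 ± 0.45. The lower members numbered 2 after median centring and 2 after spike scaling, and the filter at 152.5 left 3 higher and 3 lower. Aqp3 is not analysed here.

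Pluripotency and inner cell mass genes had 17 of 27 tested members higher and 4 lower, with a median of 0.84. Nanog, a homeobox factor of the pluripotent inner cells, had signals of 42.5, 24.5 and 47.0 in 2-cell embryos and 1789, 1626 and 1762 in blastocysts, a difference of 5.18 ± 0.21 (limma adjusted p = 1.32e-14), and a second probe set gave 3.40. Sox2 had 188, 129 and 75.6 in 2-cell embryos and 1319, 1178 and 843 in blastocysts, a difference of 3.05 ± 0.25. The blastocyst arrays of both genes lay well above the 2-cell arrays. Nanog was already at a mean of 1070 in 8-cell embryos, whereas Sox2 was at 77.5 there, below its 2-cell mean of 131.

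Pou5f1, whose product OCT4 is also stored by the oocyte, changed far less than its partners. It had 459, 330.0 and 290.1 in 2-cell embryos and 668, 561 and 602 in blastocysts, a difference of 0.77 ± 0.22 (limma adjusted p = 0.00449), and its oocyte mean was 289. Tfcp2l1, a transcription factor of naive pluripotency, rose by 4.19 ± 0.34, the co-receptor gene Tdgf1 by 3.34 ± 0.29, the TGF-beta family ligand Gdf3 by 3.01 ± 0.42, Zfp42 by 2.62 ± 0.24 and Utf1 by 1.85 ± 0.30. Dppa5a, which encodes a KH-domain protein of pluripotent cells, was bright at both stages and rose from a mean of 1696 to 8167. Klf4 and Fgf4 were not called at 0.30 ± 0.19 and -0.09 ± 0.19, with 2-cell means of 441 and 381.

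The 4 members called lower were Il6st, Dppa4, Sox15 and Fbxo15. Il6st, the signalling receptor chain for leukaemia inhibitory factor, fell from 213, 152 and 172 to 57.9, 55.6 and 56.1, a difference of -1.48 ± 0.28. Dppa4 was lower at -1.35 ± 0.24 and Sox15 at -0.98 ± 0.23. Fbxo15 had 5096, 5268 and 7649 in 2-cell embryos and 3456, 3624 and 4689 in blastocysts after a mean of 16031 in 8-cell embryos. Its fall of 0.60 was not called without 2-cell replicate 3, at -0.41, or without blastocyst replicate 1, at -0.52. Il6st was the 1 member of these 4 still lower after spike scaling.

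Primitive endoderm genes, which mark the layer facing the cavity, had 14 of 21 tested members higher and none lower, with a median of 1.56. Many of the higher members are shared with other lists. Col4a1, Lama1, Lamc1, Sparc, Serpinh1, Nid1 and Nid2 are also counted with the matrix genes, and Lrp2 and Dab2 with endocytosis. Fgfr2 is shared with the trophectoderm and growth factor lists, Pdgfra with the growth factor list and Aqp8 with ion and water transport. Lrp2, the endocytic receptor megalin, had signals of 36.9, 23.3 and 17.4 in 2-cell embryos and 599, 481 and 699.8 in blastocysts, a difference of 4.05 ± 0.28 (limma adjusted p = 7.91e-11). Pdgfra, the receptor that marks this lineage, had 76.1, 51.8 and 14.2 in 2-cell embryos and 511, 488 and 373 in blastocysts, a difference of 3.17 ± 0.38, while a second probe set was not called at -0.30. Both were dim or low at 2 cells and high on every blastocyst array. The endocytic adaptor Dab2 rose by 2.40 ± 0.30, although 1 of its further probe sets was not called at 0.02, the homeobox gene Rhox5 by 3.22 ± 0.30, the collagen chain Col4a1 by 2.86 ± 0.38 and the collagen chaperone Serpinh1 by 2.86 ± 0.33.

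The GATA factors of the lineage did not move together. Gata6, its earliest factor, had 54.4, 68.8 and 34.7 in 2-cell embryos and 212, 231 and 226 in blastocysts, a difference of 1.91 ± 0.21 (limma adjusted p = 8.61e-08), after an 8-cell mean of 431. Gata4, a later factor, had 130.1, 43.2 and 83.2 in 2-cell embryos and 59.7, 102 and 47.5 in blastocysts and was not called at -0.21 ± 0.47. Sox17 was not called at 0.80 ± 0.35 (limma adjusted p = 0.0553), but was called higher without blastocyst replicate 3, at 1.02, and under 7 other settings. Sox7 was not called at -0.50 ± 0.39. Under the filter at 152.5 the higher members of the list numbered 9.

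Extracellular matrix genes and integrins had 14 of 36 tested members higher and 2 lower, with a median of 0.35. The laminin chain Lamc1 rose from 29.0, 98.2 and 71.7 to 463, 416 and 216, a difference of 2.33 ± 0.32. Sparc, a collagen-binding matrix protein, rose by 2.55 ± 0.36 from dim signals, and the tetraspanin Cd9 by 2.27 ± 0.21. Of 8 integrin genes tested, Itgb1, the beta chain shared by many integrins, was higher at 2.20 ± 0.22, Itga7 was lower at -2.40 ± 0.28, with a second probe set not called at 0.21, and 6 were not called. The stricter filter, above 152.5, left 5 members of the list called higher.

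Stored oocyte transcripts lay on the opposite side. None of 25 tested oocyte and maternal factors was higher and 23 were lower, with a median of -3.75. Btg4, an adaptor that brings the deadenylase to maternal messenger RNAs, had signals of 6207, 5691 and 3793 in 2-cell embryos and 11.2, 4.9 and 3.2 in blastocysts, a difference of -8.23 ± 0.23 (limma adjusted p = 2.52e-17). Tcl1b1, of the Tcl1 family, had 5849, 5133 and 4040 in 2-cell embryos and 12.6, 14.5 and 16.6 in blastocysts, a difference of -7.60 ± 0.17. Every blastocyst array was dim for both genes, while every 2-cell array was bright.

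The oocyte growth factors Gdf9 and Bmp15 ended at different levels. Gdf9 had 1883, 1670 and 1395 in 2-cell embryos and 117, 117 and 91.9 in blastocysts, a difference of -3.79 ± 0.16 (limma adjusted p = 3.01e-14). Bmp15 had 1308, 880.2 and 436 in 2-cell embryos and 5.5, 10.1 and 4.3 in blastocysts, a difference of -5.53 ± 0.28, so that all its blastocyst arrays were dim. Zp3, which encodes an egg coat protein, fell from an oocyte mean of 7194 to 477, 410.0 and 913 in the 2-cell samples and 34.1, 34 and 31.4 in blastocysts. Its fellow coat genes Zp2 and Zp1 were lower at -5.07 ± 0.31 and -2.20 ± 0.25. The fall of Mos, the kinase that arrests the egg in metaphase, was smaller at -1.58 ± 0.30 and not called with a second probe set at -0.65, with 74.2, 97.9 and 246 on the 3 2-cell arrays and 39.9, 31.6 and 29.7 on those of blastocysts.

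Among other oocyte genes, the oocyte linker histone H1f8 was lower at -3.46 ± 0.23, the homeobox gene Lhx8 at -4.68 ± 0.27, the receptor tyrosine kinase Kit at -2.76 ± 0.19, the G-protein regulator Rgs2 at -4.29 ± 0.26 and the spindle-associated chromatin reader Spin1 at -4.07 ± 0.19. Dppa3, which protects the maternal genome from demethylation, was the bright exception in level: it had 6192, 5583 and 6021 in 2-cell embryos and still 3054, 2269 and 2132 in blastocysts, a difference of -1.27 ± 0.17. The 2 members not called, Figla and Nobox, are transcription factors of the growing oocyte and were near or below the filter at both stages, at 28.1 and 7.97 in 2-cell embryos. The lower members also numbered 23 under median centring and under spike scaling.

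The 2 largest falls were of transcripts already bright in oocytes, with oocyte means of 6071 for C86187 and 3870 for Omt2b. C86187, a gene with no assigned role here, had signals of 8194, 7808 and 7045 in 2-cell embryos and 2.5, 3.6 and 2.6 in blastocysts, a difference of -9.11 ± 0.19 (limma adjusted p = 6.37e-19). Omt2b, an oocyte maturation gene, had 8109, 7902 and 7596 in 2-cell embryos and 2.2, 8.5 and 4.7 in blastocysts, a difference of -8.95 ± 0.21. Both were among the brightest transcripts of the 2-cell embryo and were dim on every blastocyst array. The Kruppel-like factor Klf17 was lower at -7.78 ± 0.22 and the anti-apoptotic Bcl-2 relative Bcl2l10 at -6.92 ± 0.24, but their second probe sets gave smaller values of -0.77 and -0.32. Trim61 was lower at -8.06 ± 0.28, the mitochondrial protein gene Gdap1 at -7.55 ± 0.19, the microtubule-binding Slain1 at -6.67 ± 0.23, the KH-domain gene Khdc1b at -6.47 ± 0.21, the inositol oxygenase Miox at -6.45 ± 0.21 and the formin Fhod3 at -6.42 ± 0.23.

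The start regions of Btg4 and Omt2b are printed because both genes are among the 3 largest falls. They come from RefSeq, build GRCm38.p6, 5′ to 3′, with Btg4 at chr9:51115751-51116050 on the plus strand and Omt2b at chr9:78327780-78328079 on the plus strand, and capitals mark the same 5 motifs.
Btg4 promoter: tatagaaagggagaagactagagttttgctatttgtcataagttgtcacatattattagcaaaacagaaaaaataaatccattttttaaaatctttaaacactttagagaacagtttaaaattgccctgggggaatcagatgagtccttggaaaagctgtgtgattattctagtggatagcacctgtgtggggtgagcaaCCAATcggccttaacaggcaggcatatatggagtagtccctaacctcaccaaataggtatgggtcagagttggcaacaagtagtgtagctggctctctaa
Omt2b promoter: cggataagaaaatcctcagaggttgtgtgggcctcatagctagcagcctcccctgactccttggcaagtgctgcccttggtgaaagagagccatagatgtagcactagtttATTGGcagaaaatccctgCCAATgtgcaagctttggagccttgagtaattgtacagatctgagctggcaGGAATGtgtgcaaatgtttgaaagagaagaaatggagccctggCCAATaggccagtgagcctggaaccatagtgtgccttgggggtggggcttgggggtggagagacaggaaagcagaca
The Btg4 window holds 1 CCAAT box, and the Omt2b window holds 3 CCAAT boxes and 1 TEAD core. CCAAT was in 52.9% of the 87 windows of genes at least 16-fold lower, in 37.3% of the 67 windows of genes at least 16-fold higher and in 37.4% of all windows of tested genes. The GC box was in 49.4%, 65.7% and 61.4% of the same windows, and in neither the Btg4 nor the Omt2b window. CCAAT and the GC box were picked from a wider scan of motifs. In that scan the ETS motif CCGGAAG was in 9.2%, 8.96% and 17.3% and the E-box CACGTG in 3.45%, 13.4% and 10.4%. The median number of CpG dinucleotides per window was 16, 16 and 20. Genes with several start sites contribute several windows, so these shares are not counts of genes and were not tested.

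Several genes peaked in the 2-cell embryo itself and were low both before and after. D13Ertd608e had 4818, 4633 and 3444 in 2-cell embryos and 24.9, 17.3 and 18.5 in blastocysts, a difference of -7.10 ± 0.29 (limma adjusted p = 1.56e-14), with an oocyte mean of 110.0. AF067063 had 3768, 3785 and 2456 in 2-cell embryos and 15, 43.6 and 21.2 in blastocysts, with an oocyte mean of 27.5. The 2-cell arrays of both lay far above all arrays of the other stages named. Of the genes at least 2-fold lower whose arrays did not overlap, 101 were dim on every oocyte and 1-cell array. Such dim signals were no more common among falls than elsewhere, at 7.8% of all genes called at least 2-fold lower and 10.7% of all genes tested. Among the 101 were AF067063, Sowaha, Guca1a, the kinase Hipk1 and the interferon gene Ifng. Ifng fell from 110.4, 130.5 and 118 to 0.9, 1.6 and 0.6, and Hipk1 from 347, 268 and 330.5 to 15.1, 30.4 and 9.0.

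The list of transient 2-cell genes, those switched on with the first wave of embryonic transcription, divided in its later course. Of 8 tested members 4 were lower and 3 higher. Tcstv1 had 2791, 2090 and 1300 in 2-cell embryos and 34.2, 13.3 and 7.0 in blastocysts, a difference of -6.19 ± 0.30 (limma adjusted p = 2.31e-13), and its relative Tcstv3 was lower at -5.28 ± 0.27. Guca1a, which encodes a guanylate cyclase activator, fell from 2802, 2994 and 2838 to 282, 167 and 234, and Usp17la, a deubiquitinase gene, was lower at -2.75 ± 0.35. The probe sets of Tcstv1 and Tcstv3 carry a mark for sequence shared within a family, so their signals may include relatives, as may those printed for Cldn7, Actb and Atp1b1. With only probe sets that carry no such mark of any kind, the lower members of the list numbered 2.

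The remaining members stayed on. Crxos, a homeobox gene, had 1489, 1324 and 3094 in 2-cell embryos and 4362, 4279 and 6293 in blastocysts, a difference of 1.42 ± 0.23 (limma adjusted p = 2.14e-05), after an 8-cell mean of 8089. Pramel6, of the PRAME family of pluripotency regulators, rose by 0.96 ± 0.21 and the translation initiation gene Eif1a by 1.07 ± 0.20. Pramel7 was not called at -0.10 ± 0.34, with means of 2768 and 2552 on either side of an 8-cell mean of 5900. Crxos, Pramel6 and Eif1a had oocyte means of 3.75, 7.58 and 19.3, all dim.

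**Figure D2:**
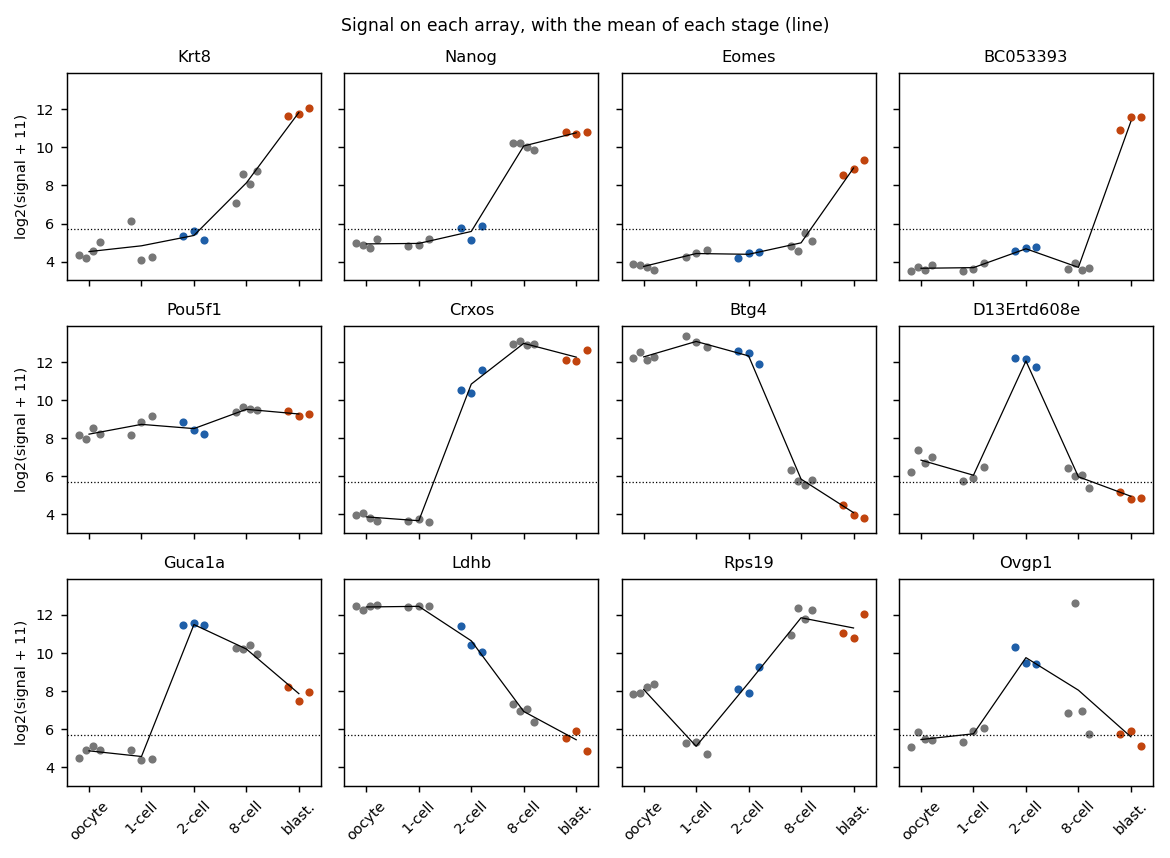
Signal of 12 genes on each of the 17 arrays as log2(signal + 11), by stage; points are arrays, the 2-cell arrays in blue and blastocyst arrays in orange, lines join the stage means and the dotted line marks the filter at a signal of 41.1. Krt8, Eomes and BC053393 are highest in blastocysts, Btg4 and Ldhb are bright up to the 2-cell stage and low after it, D13Ertd608e peaks at 2 cells, and 8-cell array 2 stands apart for Ovgp1 at 6212.

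Oxidative phosphorylation genes, which encode the respiratory chain, had 56 of 70 tested members higher and 5 lower, with a median of 1.78. Ndufa5, a subunit of complex I, had signals of 101, 85.3 and 167 in 2-cell embryos and 3087, 3753 and 3409 in blastocysts, a difference of 4.78 ± 0.22 (limma adjusted p = 1.52e-13). Cyc1, the cytochrome c1 of complex III, had 225, 249 and 276 in 2-cell embryos and 5120, 5946 and 5858 in blastocysts, a difference of 4.44 ± 0.19, although a second probe set was lower at -0.79. By complex, 23 of 28 complex I subunits were higher and none lower, as were 4 of 4 subunits of complex II, 8 of 8 of complex III and 11 of 13 of ATP synthase. The medians of those complexes were 1.94, 2.19, 2.59 and 1.92.

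Cytochrome c oxidase, the terminal complex, held 6 higher and 4 lower subunits of 11, leaving out the copper chaperone Cox17 and the supercomplex factor Cox7a2l, which were higher. Cox6c, counted as higher, had a further probe set called lower. All 4 that fell are tissue-type isoforms of small subunits, known from heart, muscle and testis: Cox6b2 at -3.98 ± 0.26, Cox6a2 at -2.19 ± 0.31, Cox8c at -0.92 ± 0.19 and Cox8b at -0.74 ± 0.31. Cox6b2 had 493, 406 and 246 in 2-cell embryos and 15.9, 14 and 9.4 in blastocysts, dim on all 3. The isoform Cox6a1, the general partner of Cox6a2, was bright at 2 cells with a mean of 1730 and rose by 0.97 ± 0.22, and Cox6b1 was not called at -0.18 ± 0.26. The fall of Cox8b was lost when any array but blastocyst replicate 2 was left out, with values of -0.79 to -0.52.

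**Figure D3:**
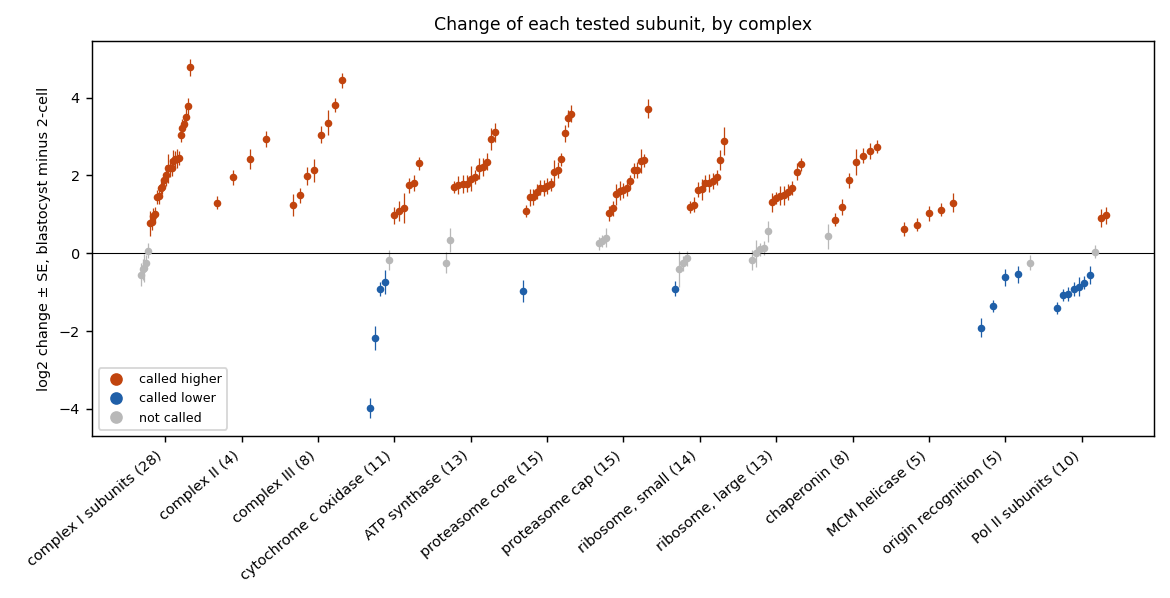
Difference between blastocyst and 2-cell embryo on the log2(signal + 11) scale for each tested subunit of 13 complexes; points are genes, bars are the standard error of the fit, colours give the call and brackets the number tested. Complex III, the MCM helicase and the cap and core of the proteasome lie mostly above 0, cytochrome c oxidase spans -3.98 to 2.31, and the origin recognition complex lies below 0.

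Glucose use was described by transporters, glycolytic enzymes and the enzymes around pyruvate, of which 10 of 28 tested members were higher and 6 lower, with a median of 0.13. Hk2, a hexokinase that commits glucose to the cell, had signals of 28.9, 58.8 and 40.6 in 2-cell embryos and 1721, 1916 and 1418 in blastocysts, a difference of 5.01 ± 0.33 (limma adjusted p = 3.19e-11). The glucose transporter Slc2a3, which sits on the outer face of the trophectoderm, had 51.6, 69.5 and 76.3 in 2-cell embryos and 366, 509 and 716 in blastocysts, a difference of 2.78 ± 0.34. Slc2a1, the general transporter, was low at both stages, with 20.9, 37.2 and 12.7 and 45.3, 93.8 and 49.7, and rose by 1.10 ± 0.30. The pyruvate dehydrogenase subunit Pdha1 rose by 2.62 ± 0.23, the transketolase Tkt by 2.07 ± 0.36 and the aldolase Aldoa by 1.69 ± 0.16.

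Lactate dehydrogenase, which turns lactate into pyruvate, is stored by the egg as its B form. Ldhb had 2710, 1379 and 1070 in 2-cell embryos and 35.5, 49.8 and 18.5 in blastocysts, a difference of -5.19 ± 0.28 (limma adjusted p = 1.57e-12), after an oocyte mean of 5478. Ldha, the other main form, had 445, 515 and 331 in 2-cell embryos and 249.7, 243 and 211 in blastocysts and was not called at -0.83 ± 0.39 (limma adjusted p = 0.0714). The 2-cell and blastocyst arrays of Ldha did not overlap, but its standard error draws on the spread over all 17 arrays. Oocyte array 1 had an Ldha signal of 58.6 against 11.6 to 17.5 on the other oocyte arrays, and its part in that error was not tested. Blastocyst signals of Ldhb were dim on 2 of 3 arrays, and those of Ldha were above the filter on all 3. Bpgm, the bisphosphoglycerate mutase, was lower at -5.04 ± 0.27, and the pyruvate dehydrogenase kinase Pdk1, which switches pyruvate dehydrogenase off, at -2.56 ± 0.28. The regulator Pfkfb3 was lower at -1.63 ± 0.29 and the glycolytic enzyme phosphofructokinase, Pfkp, at -1.59 ± 0.33. The muscle-type fructose bisphosphatase Fbp2, which works against glycolysis, rose from 17.2, 4.7 and 2.5 to 1894, 1820 and 2093, a difference of 6.74 ± 0.28.

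Lipid enzymes had 11 of 25 tested members higher and 4 lower, with a median of 0.19. The fatty acid desaturases Scd1 and Scd2 rose by 2.67 ± 0.27 and 1.66 ± 0.31 and the elongases Elovl6 and Elovl5 by 2.51 ± 0.24 and 1.56 ± 0.25. In the cholesterol branch, the squalene synthase Fdft1 fell from 1195, 1358 and 1208 to 191, 219 and 290.2, the squalene epoxidase Sqle was lower at -1.96 ± 0.20 and the HMG-CoA synthase Hmgcs1 at -1.42 ± 0.22, while the later enzyme Msmo1 rose by 1.51 ± 0.27. The heart-type fatty acid binding protein Fabp3 showed the largest rise of all genes called, with 14.9, 20.2 and 3.7 in 2-cell embryos, 2739, 3792 and 2184 in blastocysts and a difference of 6.96 ± 0.39 (limma adjusted p = 2.92e-12).

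Other large rises encoded enzymes and membrane or cytoskeletal proteins. BC053393, with no assigned role here, had 12.8, 14.8 and 16.1 in 2-cell embryos and 1881, 3040 and 3081 in blastocysts, a difference of 6.68 ± 0.25, and was dim on all 14 earlier arrays. The aminopeptidase Enpep rose by 6.58 ± 0.33 and the actin-capping protein Capg by 5.17 ± 0.29, but a second probe set of each was not called, at -0.14 and -0.13. The intracellular protease inhibitor Serpinb6a rose by 6.73 ± 0.36, the prostaglandin reductase Ptgr1 by 6.10 ± 0.25, the membrane scaffold Ahnak by 5.64 ± 0.44, the alcohol dehydrogenase Adh1 by 5.52 ± 0.41, the aldo-keto reductase Akr1b8 by 5.39 ± 0.27 and the stress-response gene Ndrg1 by 5.14 ± 0.44. Actb, cytoplasmic actin, rose from 436, 314 and 362 to 3315, 4051 and 3355, a difference of 3.24 ± 0.19, with a second probe set not called at 0.51.

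Ribosomal protein genes had 18 of 27 tested members higher and 1 lower, with a median of 1.48. Rps19 of the small subunit had 269, 232 and 599.7 in 2-cell embryos and 2140, 1784 and 4283 in blastocysts, a difference of 2.88 ± 0.36 (limma adjusted p = 5.94e-07). Rpl8 of the large subunit had 1110, 1413 and 1610 in 2-cell embryos and 6445, 6914 and 6732 in blastocysts, a difference of 2.29 ± 0.17. The brightest members were not called: Rps24 with 2-cell and blastocyst means of 12380 and 10230, Rpl41 with 12594 and 11212, and Rplp0 with 7845 and 8442. By subunit, 10 of 14 small and 8 of 13 large subunit genes were higher. Rpl19, counted as higher, had a further probe set called lower. Ribosomal genes have many processed copies in the genome, which the probe sets may also detect.

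Translation factors had 19 of 44 tested members higher and 7 lower, with a median of 0.36. Eif4ebp1, a repressor of cap-dependent translation, rose by 3.24 ± 0.29, and the eIF3 subunits Eif3d and Eif3l by 2.60 ± 0.21 and 1.85 ± 0.21. The initiation factor Eif1b fell from 1974, 1485 and 1193 to 510.1, 413 and 412. Eif6, which keeps ribosomal subunits apart, was lower at -1.52 ± 0.19, and the cap-binding protein Eif4e at -1.15 ± 0.25. Eef1b2 was called lower at -1.26 ± 0.40, but its second probe set was not called and had the opposite sign at 0.41. The call was also lost without 2-cell replicate 1, at -1.08, and without blastocyst replicate 3, at -0.79.

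The proteasome, which degrades ubiquitin-tagged proteins, had 31 of 42 tested genes higher and 5 lower, with a median of 1.59. Of its core particle 14 of 15 tested genes were higher, and of the ATPases of its cap 5 of 5. The core gene Psmb5, counted as higher, had a further probe set called lower. Psma5, a core subunit, had 140.2, 142 and 265 in 2-cell embryos and 2240, 2097 and 2331 in blastocysts, a difference of 3.59 ± 0.21 (limma adjusted p = 3.98e-12). Psmc3, a cap ATPase, rose by 3.72 ± 0.25, Psmb3 by 3.47 ± 0.22 and the assembly factor Psmg2 by 3.99 ± 0.27. The alternative activators divided, with Psme1 higher at 3.53 ± 0.34 and Psme4 and Psme3 lower at -1.84 ± 0.17 and -1.10 ± 0.20. The lower core gene was Psmb10, an immunoproteasome subunit, at -0.97 ± 0.28, and 2 genes matched by name alone, Psmc3ip and Psme3ip1, are not subunits.

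Chaperones had 18 of 30 tested members higher and 6 lower, with a median of 1.18. All but 1 of 8 subunits of the chaperonin that folds actin and tubulin were higher, with Cct7 at 2.74 ± 0.17 and Cct5 at 2.63 ± 0.20. Hspa8, the constitutive HSP70, had 654, 649 and 1213 in 2-cell embryos and 4510, 5908 and 5408 in blastocysts, a difference of 2.69 ± 0.22 (limma adjusted p = 7.62e-10). The inducible HSP70 gene Hspa1a, one of the first genes the embryo transcribes, went the other way, with 1071, 1410 and 733 in 2-cell embryos and 69.8, 161 and 59.3 in blastocysts, a difference of -3.40 ± 0.41. Its near-identical neighbour Hspa1b was lower at -1.42 ± 0.41, and the 2 cannot be separated with certainty by these probes.

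Endocytosis and lysosome genes had 25 of 47 tested members higher and 9 lower, with a median of 0.82. The lysosomal hexosaminidase Hexa had 22.8, 31.3 and 29.3 in 2-cell embryos and 536, 560.2 and 774 in blastocysts, a difference of 4.02 ± 0.32, the sphingolipid activator precursor Psap rose by 2.62 ± 0.19, with a second probe set not called at 0.18, and the peptidase Tpp1 by 2.54 ± 0.38. Of 8 cathepsins, the proteases of the lysosome, 2 were higher and 4 lower. Ctsh fell from 544, 468 and 352 to 26.2, 27.3 and 2.6, a difference of -4.09 ± 0.32 (limma adjusted p = 4.24e-10). Ctss was lower at -2.66 ± 0.41 and Ctsb at -1.56 ± 0.23. The clathrin light chain Cltb was lower at -1.79 ± 0.19. The transferrin receptor Tfrc, which takes up iron, had 2878, 3729 and 4255 in 2-cell embryos and 448, 382 and 391 in blastocysts, a difference of -3.10 ± 0.21.

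The endoplasmic reticulum and secretory pathway had 25 of 51 tested members higher and 6 lower, with a median of 0.41. Rpn1 and Rpn2, subunits of the complex that glycosylates new proteins, had 2-cell means of 83.1 and 290.0, blastocyst means of 380.0 and 1326, and differences of 2.07 ± 0.17 and 2.15 ± 0.21. Xbp1, the transcription factor of the secretory programme, rose from 26.9, 17.1 and 29.4 to 152, 157 and 146. The chaperone Hspa5 was bright at both stages and not called at 0.41 ± 0.23. Canx was lower at -0.91 ± 0.19, with a second probe set not called at 0.27, and Sec11c at -1.13 ± 0.22. None of the 6 lower members stayed lower after spike scaling.

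DNA replication genes had 20 of 41 tested members higher and 8 lower, with a median of 0.52. The 5 tested subunits of the MCM helicase, which unwinds DNA at the fork, were all higher, by 0.63 to 1.30. Of the 5 tested subunits of the origin recognition complex, which loads that helicase, none was higher and 4 were lower, and the 5 differences ran from -1.91 to -0.24. Orc5 fell from 1529, 1183 and 683 to 297, 243 and 293 and Orc1 from 321, 303 and 308 to 108, 133 and 105. The ligase Lig1 rose by 2.56 ± 0.26, the clamp loader subunit Rfc4 by 2.67 ± 0.35 and the ribonucleotide reductase subunit Rrm1 by 2.44 ± 0.22. The polymerase epsilon subunit Pole4 was lower at -3.75 ± 0.19, and Pcna, the sliding clamp, was not called at 0.06 ± 0.17 with means of 2314 and 2375. The lower members numbered 5 without 2-cell replicate 1.

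Mitosis and cell cycle genes leaned the other way, with 7 of 47 tested members higher and 25 lower and a median of -0.66. The retinoblastoma gene Rb1 had 240.4, 224 and 182 in 2-cell embryos and 1.1, 1.4 and 2.7 in blastocysts, a difference of -4.15 ± 0.31 (limma adjusted p = 2.3e-10). The cyclin-like Ccng2 was lower at -3.19 ± 0.23, the centriole kinase Plk4 at -2.55 ± 0.23 and the mitotic phosphatase Cdc25c at -2.44 ± 0.19. Cdk4 and Ccnd3, partners in the G1 phase, rose by 1.70 ± 0.18 and 1.57 ± 0.23. Cdc20, Ccnb2 and Kif20a, which act in mitosis itself, were bright at both stages and not called, at 0.18 ± 0.16, 0.44 ± 0.20 and -0.08 ± 0.17, though Ccnb2 was called without 2-cell replicate 3 at 0.53. Spike scaling left 15 members lower.

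Genes of cell death and the p53 response had 8 of 33 tested members higher and 11 lower, shares near those of all genes. The p53 targets Gadd45a and Gadd45b were lower at -2.58 ± 0.38 and -2.73 ± 0.26, and the pro-apoptotic Bid and the inhibitor Birc3 at -2.06 ± 0.28 and -3.02 ± 0.22. The executioner caspase Casp6 had 24.0, 17.2 and 22.2 in 2-cell embryos and 286, 328 and 398 in blastocysts, a difference of 3.43 ± 0.22, and Perp, a p53 target and desmosomal protein, rose by 4.49 ± 0.39. Under spike scaling the median of the list turned from -0.19 to 0.28.

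RNA polymerase II and its general factors had 7 of 56 tested members higher and 27 lower, with a median of -0.48. Of 10 polymerase subunits 7 were lower and 2 higher, and of 12 Mediator subunits 5 and 1. Of 4 TAF proteins of polymerase II, 2 were lower, as were 2 of 4 TAF proteins of polymerase I that the name pattern took in. The elongation factor Tcea1 had 1548, 1416 and 1132 in 2-cell embryos and 233, 166 and 269 in blastocysts, a difference of -2.57 ± 0.17 (limma adjusted p = 5e-11), and both further probe sets were lower too. Eloa was lower at -3.13 ± 0.24, with a second probe set not called at -0.47, and Med27 at -2.37 ± 0.18, while Polr2g and Polr2e rose by 0.97 ± 0.23 and 0.91 ± 0.23. With spike scaling 10 members were lower and the median was 0.

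Chromatin genes had 8 of 50 tested members higher and 21 lower, with a median of -0.18. Bmi1, a Polycomb protein, had 7836, 10284 and 10823 in 2-cell embryos and 952, 943 and 465 in blastocysts, a difference of -3.66 ± 0.24 (limma adjusted p = 2.56e-11). The Polycomb methyltransferase Ezh2 was lower at -1.97 ± 0.22, the H3K27 demethylase Kdm6a at -2.40 ± 0.16 and the DNA methyltransferase Dnmt3a at -1.88 ± 0.25. Dnmt1, the maintenance methyltransferase, had 405, 405 and 384 in 2-cell embryos and 236, 263 and 210.2 in blastocysts, a difference of -0.73 ± 0.18, which was not called under spike scaling at -0.21. A second probe set of Dnmt1 gave -0.77 and was not called. The deacetylase Hdac3 rose by 2.64 ± 0.39 and the architectural protein Hmga2 by 2.37 ± 0.28. Lower members numbered 13 after median centring and 6 after spike scaling, where the median was 0.31, and the higher members 5 without blastocyst replicate 1. Dnmt3b is not analysed here.

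Splicing genes had 27 of 66 tested members higher and 13 lower, with a median of 0.34. Srsf3, an SR protein, rose from 188, 152 and 135 to 1074, 1355 and 1053, a difference of 2.79 ± 0.19, and the Lsm proteins Lsm4 and Lsm3 by 2.70 ± 0.24 and 2.11 ± 0.21. The kinase Srpk2, which phosphorylates SR proteins, was lower at -3.19 ± 0.26. Srsf1 gave -1.67 with its brightest probe set but 2.27 and 0.82 with its others, so no direction is drawn for it. Nucleolar genes had 7 of 44 members higher and 13 lower with a median of -0.02, among them the helicase Ddx21, higher at 2.56 ± 0.20, nucleolin, Ncl, higher at 1.21 ± 0.16, and the polymerase I subunit Polr1e, lower at -1.99 ± 0.25. Their higher members numbered 14 without 2-cell replicate 3 and 17 under spike scaling, where the median was 0.50.

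Genes of messenger RNA storage and decay had 6 of 30 tested members higher and 15 lower, with a median of -0.55. The deadenylase subunits Cnot7 and Cnot8 were lower at -4.14 ± 0.22 and -2.37 ± 0.21, with a second Cnot7 probe set at only -0.79, and the antiproliferative factor Tob1, which binds them, at -3.35 ± 0.28. The oocyte RNA-storage protein Ybx2 fell from 100.4, 88.4 and 94.7 to 8.6, 12.7 and 5.8. The stabilising protein Elavl1 rose by 2.06 ± 0.25 and the destabilising factor Zfp36l1 by 2.06 ± 0.29. Lower members numbered 8 under spike scaling.

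Imprinted genes, expressed from 1 parental copy, had 6 of 23 tested members higher and 8 lower, close to the shares of all genes, with a median of -0.29 that was 0.18 under spike scaling. Sfmbt2, a Polycomb-family gene expressed from the paternal copy in extraembryonic tissue, had 29.4, 28.6 and 22.5 in 2-cell embryos and 834, 1076 and 679 in blastocysts, a difference of 4.51 ± 0.27 (limma adjusted p = 9.64e-12). The amino acid transporter Slc38a4 had 29.0, 45.4 and 36.9 in 2-cell embryos and 709, 668 and 929 in blastocysts, a difference of 4.02 ± 0.25. Both were dim or near the filter at 2 cells and bright in every blastocyst sample. Igf2, a growth factor, rose by 2.48 ± 0.37, and Xist, the RNA that coats the inactive X chromosome, by 2.84 ± 0.34. The placental growth restrainers Phlda2 and Cdkn1c were lower at -2.42 ± 0.27 and -2.21 ± 0.26, Mest at -2.38 ± 0.31 and Usp29 at -3.73 ± 0.27. H19 is not analysed here, and the lower members numbered 5 without blastocyst replicate 3.

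Amino acid transport, polyamine and serine synthesis genes had 8 of 28 tested members higher (28.6%) and 12 lower (42.9%), against 28.0% and 32.7% of all genes. The median was -0.18 against -0.16 over all genes, and 0.28 against 0.32 under spike scaling. The share higher and the median were thus near those of all genes. The arginases Arg2 and Arg1 were lower at -4.44 ± 0.29 and -2.67 ± 0.27, and Arg1 had 102, 116 and 97.2 in 2-cell embryos and 13.9, 2.2 and 7.2 in blastocysts. The transporters Slc7a7 and Slc7a6 rose by 3.61 ± 0.30 and 3.15 ± 0.28, and the asparagine synthetase Asns by 2.05 ± 0.18. The folate enzyme Mthfd2 was lower at -2.09 ± 0.26.

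Growth factors and their receptors had 14 of 45 tested members higher and 18 lower, again near the shares of all genes, with a median of -0.36 that was 0.02 under spike scaling. Of the ligands, Bmp6 was lower at -4.04 ± 0.22 and Tgfb2 at -3.38 ± 0.33, while Wnt3a rose by 2.11 ± 0.42 and Bmp4 by 0.90 ± 0.21. Of the receptors, Egfr had 464, 362 and 269.9 in 2-cell embryos and 4.4, 5.2 and 8.7 in blastocysts, a difference of -4.44 ± 0.23 (limma adjusted p = 8.13e-13). Fgfr2, the receptor that reads FGF4 in trophectoderm and primitive endoderm, had 86.8, 121 and 107 in 2-cell embryos and 730.3, 778 and 930.2 in blastocysts, a difference of 2.83 ± 0.25, with further probe sets at 2.98 and, not called, at -0.32. Egfr was dim on all blastocyst arrays.

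**Figure D4:**
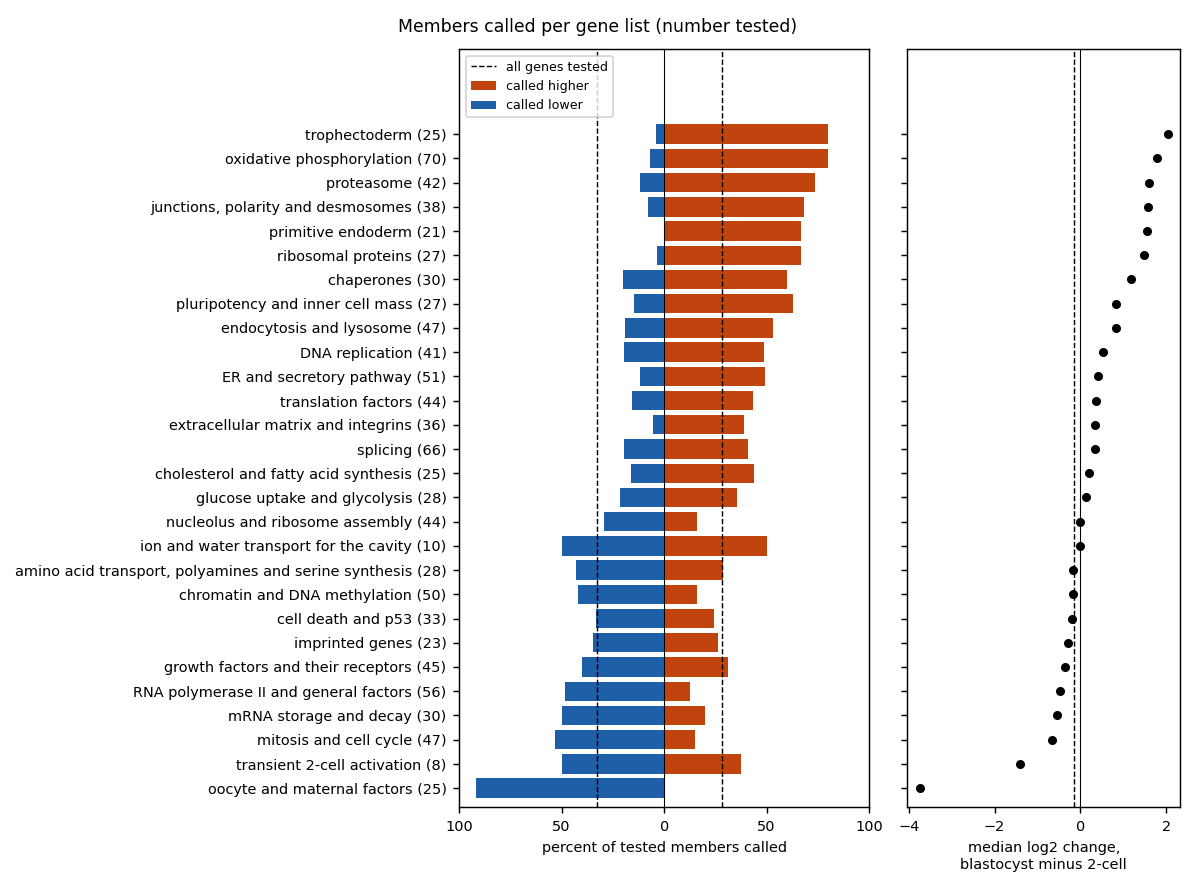
Share of the tested members of 28 gene lists called higher (right) and lower (left) in blastocysts, with the number tested in brackets, and the median difference of each list on the log2(signal + 11) scale; dashed lines give the values over all 6044 genes. The trophectoderm list has 80.0% of members higher and a median of 2.04, and the oocyte and maternal list 92.0% lower and a median of -3.75.

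The scale moved the smaller counts of lower members. Over all genes tested, 1006 of 6044 were lower under spike scaling (16.6%), against 32.7% as deposited. Under spike scaling no junction or ribosomal protein gene was lower, and the lower members numbered 1 of the pluripotency list, 1 of the matrix list, 2 of the translation factors, 2 of the proteasome, 3 of oxidative phosphorylation, 3 of DNA replication, 3 of the chaperones, 3 of the nucleolus, 4 of splicing, 5 of endocytosis, 5 of the imprinted genes and 6 of the amino acid genes. The share lower was above that of all genes for the imprinted genes (21.7%) and the amino acid genes (21.4%), and below it for the other lists named. With the filter at 152.5, which tests fewer genes, 3 glycolysis genes and 6 cell death genes were lower, and of the growth factors and receptors 9 were higher and 10 lower.

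The levels at the other stages show when each side was present. Of the genes at least 2-fold lower in blastocysts, 80.2% were above the filter on all 4 oocyte arrays, against 70.6% of all genes tested, and 35.8% were dim on all blastocyst arrays, against 15.6%. Of the genes at least 2-fold higher, 23.8% were dim on all 2-cell arrays, against 9.78% of all genes tested, and 14.7% were dim on every oocyte, 1-cell and 2-cell array, against 4.1%. Choosing genes by their change fixes part of how often the lower stage is dim. The filter fixes part too. A gene dim on every oocyte, 1-cell and 2-cell array was tested only if enough later arrays were above the filter. These shares are therefore a description. With arrays that also did not overlap, 53 of the genes at least 2-fold higher were dim on every array before the blastocyst. Among them were BC053393, the peptide transporter Slc15a2, Eomes, the lactonase Pon2, Elf5 and Krt7. A gene dim on all those arrays was tested only if every blastocyst array was above the filter. The direction and the lack of overlap of these 53 genes thus follow from the filter. Slc15a2 had 20.8, 11.4 and 5.7 in 2-cell embryos and 750.2, 896 and 629.5 in blastocysts.

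A smaller set was above the filter in oocytes, dim at 2 cells and higher in blastocysts. There were 52 genes above the filter on all oocyte arrays, dim on all 2-cell arrays and at least 2-fold higher in blastocysts without overlap. Of all genes tested, 70.6% were above the filter on all oocyte arrays, 9.78% were dim on all 2-cell arrays and 65.4% had no overlap. How many of all genes joined the first 2 traits was not counted. Dim means below 41.1 and not absent. Ptgr1 had an oocyte mean of 343, 2-cell signals of 32.5, 33.1 and 21.7 and blastocyst signals of 2677, 2624 and 2831. Cldn4 had an oocyte mean of 81.8 and Serpinb6a one of 63.7, against blastocyst means of 711 and 2187.

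The 8-cell embryo lay at different points between the 2 stages for different lists. Its position is the percentage of the way from the 2-cell to the blastocyst mean on the log2 scale, given for genes changed at least 2-fold as a description without a test. Signals were taken as deposited, and positions under spike scaling were not computed. The mean log2 of the spikes was 10.8 to 11.4 on 8-cell arrays. It was 10.08 to 10.76 on 2-cell arrays and 9.8 to 10.12 on blastocyst arrays, so spike scaling would move these positions. The median position was 60.7% for all such higher genes and 78.4% for lower genes. It was 13.3% for 19 trophectoderm genes, 20.5% for 22 junction genes and 33.7% for 13 primitive endoderm genes. On the deposited scale most of their rise thus came after the 8-cell stage. It was 65.0% for 51 oxidative phosphorylation genes, 74.5% for 12 pluripotency genes and 85.0% for 29 proteasome genes. Among 18 ribosomal protein genes the median was 136%, where a value over 100% is an 8-cell mean above that of blastocysts, as for Rps19 at 3944 and 2736. Whether these 8-cell means stay above those of blastocysts under spike scaling was not tested. The 23 lower maternal genes had a median of 83.6%, and 22 of them were at or past 50%.

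**Figure D5:**
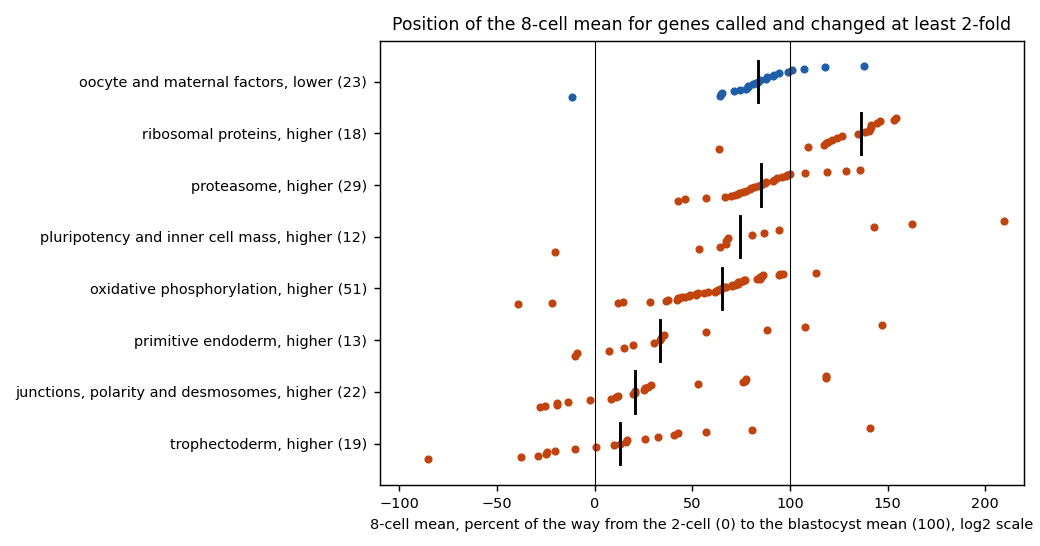
Position of the 8-cell mean between the 2-cell mean (0) and the blastocyst mean (100), in percent on the log2(signal + 11) scale with signals as deposited, for genes of 8 lists called and changed at least 2-fold; points are genes, black bars list medians, orange lists higher and blue lower. Trophectoderm genes cluster near the 2-cell end with a median of 13.3%, and ribosomal protein genes have a median of 136%, past the blastocyst mean.

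Markers of cells that could adhere to or accompany embryos were read on the same arrays. The summed signal of 17 oviduct and uterus markers was 1849 to 2440 in 2-cell samples and 690 to 952 in blastocysts, and of 12 tested 5 were lower and 1 higher, but 3 were lower without blastocyst replicate 3 and none higher without blastocyst replicate 1. The oviduct glycoprotein Ovgp1 had 1272, 715 and 688 in 2-cell embryos and 43.0, 49.1 and 24.4 in blastocysts, a difference of -4.16 ± 0.99, and the secreted lactoferrin gene Ltf had 291, 171 and 167 and 2.3, 8.2 and 2.6, a difference of -3.82 ± 0.91. The sums of 14 sperm markers were 975 to 1176 and 337 to 520, with 4 of 6 tested lower, and those of 13 blood markers 606 to 720 and 301 to 390, with 3 of 6 tested lower, or 1 without blastocyst replicate 2. The sums of 11 cumulus and granulosa markers were 577 to 665 and 445 to 650, and none of the 3 tested was called by limma. On all blastocyst arrays 9 of the oviduct and uterus markers, 9 sperm, 7 blood and 9 cumulus markers were dim, and the part of any such cells in the falls was not tested.

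The 3′ to 5′ ratio of the beta-actin control, a gauge of RNA length after amplification, was 1.62 to 2.26 on the log2 scale in 2-cell samples and 0.95 to 1.24 in blastocysts. That of the Gapdh control was 2.43 to 3.03 and 2.38 to 2.88. The hybridisation spikes were lower in blastocysts by 0.54 on the log2 scale, and 3 control probe sets for 18S ribosomal RNA differed by -0.68, -0.14 and 0.05. Of 1032 genes with more than 1 tested probe set, the further sets numbered 1204. Where both sets of a pair were called, 446 went the same way and 65 the opposite way. List members with such an opposite pair included Bnip2, Cox6c, Cyc1, Pola2, Psmb5, Rpl19, Srsf1, Ssr3 and Utp18. The part of RNA length in these differences was not tested.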

How the data were processed

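The signals are linear intensity values of a series matrix, 1 per probe set and array, as deposited by the authors. Each array had been scaled so that the mean of its middle 96% of signals was 150.097 to 150.133. The expression software was not named in the labels read. Of 12488 probe sets, 66 controls were left out. Of the other 12422, GEO's platform table gives 1 gene symbol for 10833, several for 396 and none for 1193, and 10817 symbols were matched to RefSeq through the Entrez ID.

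Tested probe sets had a signal over 41.1 (the middle value of the whole table) on 3 arrays or more. The scale was log2(signal + 11), the offset being the 25th percentile. Stage means were fitted to the 17 arrays with limma 3.58.1 in R 4.3.3, with an intensity trend, leaving 12 residual degrees of freedom, and p-values were Benjamini-Hochberg adjusted over 8067 probe sets at 0.05. The method was tested on simulated data. Each gene is represented by its brightest set with 1 symbol. The number of arrays limits the precision.

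The samples, gene lists and rules were chosen with earlier results of these data known. Lists built by name pattern took in a few genes of like name. Named genes were the 15 largest rises and 15 largest falls among genes without overlap between arrays, up to 5 called members of a list in each direction, up to 3 uncalled members by mean level, and a set of landmarks. Singled out after their values were seen were Amot, Bmp4, Cldn6, Cox17, Cox6a1, Cox6b1, Cox7a2l, Ctnna1, Ctnnb1, Dppa3, Dppa5a, Dsc2, Dsp, Elf3, Elf5, Ezr, F11r, Gata2, Gata3, Gja1, Gjb5, H1f8, Hipk1, Ifng, Itgb1, Kit, Klf5, Krt7, Lhx8, Pkp2, Plac1, Plet1, Pon2, Rgs2, Slc15a2, Sowaha, Sox17, Spin1, Tfap2a, Tfap2c, Tfrc, Utf1, Vcl, Zfp42, Zp1 and Zp2. Alternatives were quantile, median and spike scaling, other offsets and filters, no trend, array weights, the 6 arrays alone, a replicate block, plain probe sets, the mean over probe sets and leaving out each array.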

Additional observations from a re-analysis of the deposited data

Results flagged for a closer look

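In the 2 stages with 4 arrays, 45 genes were checked for 1 array far from the other 3, and 9 of 90 groups met the limit, where chance would give about 1 in 20. None of these arrays is averaged in the comparison of blastocysts with 2-cell embryos, whose groups of 3 were not checked. They do enter the spread that limma estimates over all 17 arrays, and so the standard errors and p-values of that comparison. In 8-cell embryos, array 2 had an Ovgp1 signal of 6212.4 against 43.1 to 114.1 on the others, and an Ltf signal of 827.7 against 6.0 to 11.4. Array 3 of the 8-cell embryos had signals of 309.8 for Id2 against 35.3 to 72.7, 241.2 for Fabp3 against 135.3 to 142.6, and 2481.1 for Tfrc against 1870.1 to 1955.2. Array 1 of that stage had an Elf5 signal of 6.0 against 1.1 to 1.9, all dim. Among oocytes, array 1 had signals of 58.6 for Ldha against 11.6 to 17.5 and 469.1 for Slc12a2 against 282.5 to 308.4, and array 4 had 880.1 for Psma5 against 935.1 to 942.2.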

How the results depend on the processing

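With arrays scaled on the hybridisation spikes, the number of probe sets called lower in blastocyst was 1305, against 2586 as deposited, and that of probe sets called higher in blastocyst 2726. All other settings kept both counts of probe sets within 1.5 times. Leaving out each array in turn gave 2097 to 2207 higher and 2278 to 2481 lower probe sets. A replicate block, which treats arrays of the same number as paired, gave 2202 higher and 2527 lower. The deviations of same-numbered arrays correlated at 0.011, 0.054 and 0.072, and those of differently numbered arrays at -0.097 to 0.063. With 3 arrays per stage these values cannot show whether arrays of the same number were collected or processed together. The filter at 152.5 left 1687 higher and 1763 lower, and no filter 2314 and 2906.

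Of 7846 values of 419 named genes under the alternatives, 7584 kept their direction and their side of the threshold, 125 lost their call, 131 gained one and 6 turned. With the mean over probe sets, Asf1a was -1.87, Psmd11 -0.50 and Srsf1 0.47. With plain probe sets alone, Dnajc3 was 0.59 and Eef1b2 0.41, and with the filter at 152.5 Srsf1 was 2.27. Each of these settings brings in another probe set of the gene. Dim genes have the least certain values, since a fold between signals near the filter is shrunk by the offset.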
